A study of Rattus norvegicus with 8 samples.

Results

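The genes described here carry fatty acids through oxidation and ketone body metabolism, together with other targets of the nuclear receptor PPAR-alpha. They were taken as a named list of 34 genes, of which 16 were grouped as mitochondrial, 7 as peroxisomal, 4 as microsomal and 7 as regulators and other targets. Every one of the 34 genes had a probe on the array, and the probe brightest in Cy5 stood for each. Of the 34, 31 were bright enough in liver to be tested, among 10567 genes or unnamed probes tested in all.

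Livers came from male Sprague-Dawley rats at postnatal day 21 that had stayed with their birth mothers. In the 0.5MAhR group the dams had received, in corn oil, a 0.5 mg/kg/day mixture of methyl mercury, polychlorinated biphenyls and organochlorine pesticides (the 0.5M mixture) plus aryl hydrocarbon receptor (AhR) agonists, which were non-ortho polychlorinated biphenyls, dibenzodioxins and dibenzofurans. The total dose of that combination was 6.3 ng/kg/day in dioxin toxic equivalents. In the Control group the dams had received corn oil alone, and dosing spanned gestation and nursing. Each group had 4 arrays, and each array held the RNA of 2 pooled pups, 8 pups in a group. The pups themselves were exposed only through their mothers, and no group here separates the AhR agonists from the 0.5M mixture. No source used here says which pups were littermates, so the pools may not be independent. An SD given here is the spread between pools, each on an array of its own. An SE, interval or p-value comes from the limma fit, after slide column is fitted and with variances moderated across genes. In these bulk livers, fewer cells of a type and less RNA in each cell cannot be told apart.

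Fatty acids enter liver mitochondria as carnitine esters and are shortened there by beta-oxidation to acetyl-CoA, which the liver can turn into ketone bodies. Peroxisomes shorten very long and branched chains, and microsomal CYP4A enzymes hydroxylate the omega end of the chain. PPAR-alpha, a receptor activated by fatty acids, switches on genes of all these routes in rodent liver, and suckling pups live on fat-rich milk.

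All arrays lay on 1 slide, in 2 columns that each held 2 arrays of both groups. The median Cy5 signal was 81 to 94 intensity units on the 8 arrays, over median backgrounds of 68 to 73, and 42.9% to 49.2% of spots were well above background. Correlation across genes was 0.981 to 0.991 between arrays of 1 column and 0.938 to 0.962 across columns, so slide column was a term of the fit. Hepatocyte markers were all measured, 9 of 10 of them above background on every array. The dioxin-responsive Cyp1a1 was 4.04 higher in 0.5MAhR livers on the log2 scale (limma adjusted p = 0.00267). Pancreatic acinar markers marked out a pair of arrays. The summed Cy5 signal over background of the 6 acinar markers was 2327 units on 0.5MAhR replicate 1, with 4 markers above background, and 11530 units on 0.5MAhR replicate 4, with all 6 above background. It was 27.75 and 50.75 units on 0.5MAhR replicates 2 and 3, against 30.25 to 80.75 units on the Control arrays, with at most 1 marker above background. Some list results and the differences of Pex11a, Cyp4a8, Bdh1 and Fgf21 are therefore also given without replicates 1 and 4, a choice made after seeing the data. For the other genes only the direction was checked in that way. Counts of groups that did not overlap are given with all arrays only.

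Most of these genes gave a far higher signal in liver than in the reference RNA, a pool of 14 rat cell lines. Liver was always labelled with Cy5 and the reference with Cy3, so dye bias cannot be told apart from this contrast. The log2 ratio of liver to reference was above 0 in Control livers for 29 of the 31 genes, the exceptions being Crat (-0.07) and Cyp4a8 (-0.12). A dimmer Cyp4a8 probe, above background on 2 of 4 Control arrays, had a Control log2 ratio of 0.81, so that exception depended on the probe. The median Control ratio on that scale was 2.69 over the mitochondrial genes, 3.17 over the peroxisomal genes, 4.52 over the 3 microsomal genes measured and 1.05 over the regulators and other targets, beside 0.09 over all genes tested. Fabp1, the main fatty acid binding protein of the hepatocyte cytosol, had the highest ratio, 9.19 ± 0.18 in 0.5MAhR livers and 9.33 ± 0.12 in Control livers (SD, n = 4 each). These ratios say how each gene compares with the same gene in the reference and do not order the genes by abundance.

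**Figure D1:**
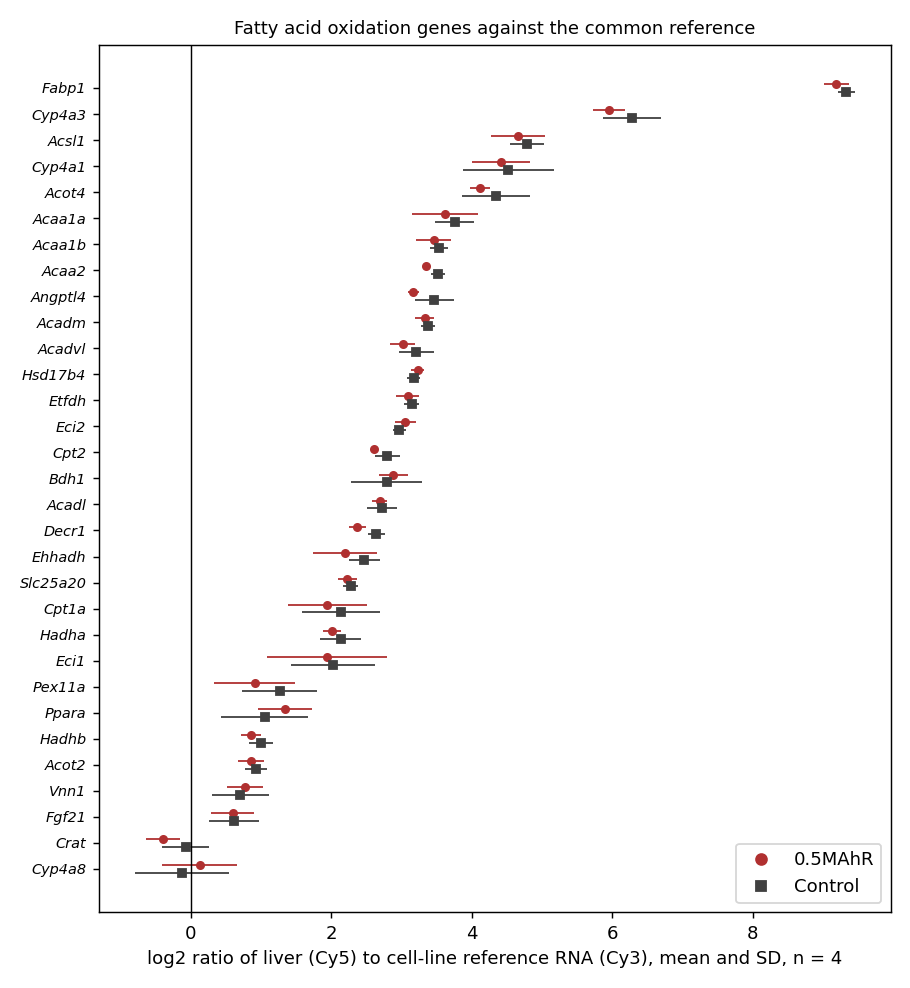
Log2 ratio of liver RNA (Cy5) to cell-line reference RNA (Cy3) on the horizontal axis for the 31 genes measured, ordered by the Control mean; red circles are 0.5MAhR and grey squares Control, with bars of 1 SD over 4 arrays. Most genes lie to the right of 0, Fabp1 farthest, and the red and grey bars of most genes overlap.

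No fatty acid oxidation gene passed the test between the groups. At an adjusted p under 0.05 in limma, 0 of the 31 genes were called, where 0.0473% of all genes tested were called (5 of 10567, all higher in 0.5MAhR livers). The smallest adjusted p of the 31 was 0.605, that of Decr1. Unadjusted, 6 of the 31 genes had a p under 0.05, all lower in 0.5MAhR livers, where 6.24% of all genes tested had such a p, made up of 2.62% lower and 3.62% higher. These were Decr1, Acadvl, Cpt2, Crat, Acaa2 and Angptl4, 5 of them mitochondrial. Every difference was small, between -0.36 for Pex11a and 0.29 for Ppara on the log2 scale.

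The differences leaned one way even though none passed. The log2 ratio was lower in 0.5MAhR livers for 25 of the 31 genes, with a median difference of -0.12, where 52.1% of all genes tested were lower, with a median of -0.0053. By compartment, 15 of 16 mitochondrial genes were lower (median -0.13), as were 5 of 7 peroxisomal genes (median -0.14), 2 of 3 microsomal genes (median -0.10) and 3 of 5 regulators and other targets (median -0.02). Of the 31 genes, 16 were lower in both slide columns, 9 of them mitochondrial, where 26.1% of all genes tested were. The median over the mitochondrial genes was -0.07 in column 1 and -0.22 in column 2. The median over the peroxisomal genes was -0.25 in column 1 and -0.0041 in column 2. Cy5 alone, with no use of the reference, gave a median of -0.10 over the 31 genes, -0.13 over the mitochondrial, -0.06 over the peroxisomal and -0.10 over the microsomal genes, and 0.04 over the regulators and other targets, whose direction it turned. Without 0.5MAhR replicates 1 and 4 the median over the 31 genes was -0.15, all 16 mitochondrial genes were lower, 25 of 31 were lower in all and 0 were called. With those arrays left out, 49.4% of all genes tested were lower and 3 of 10567 were called.

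**Figure D2:**
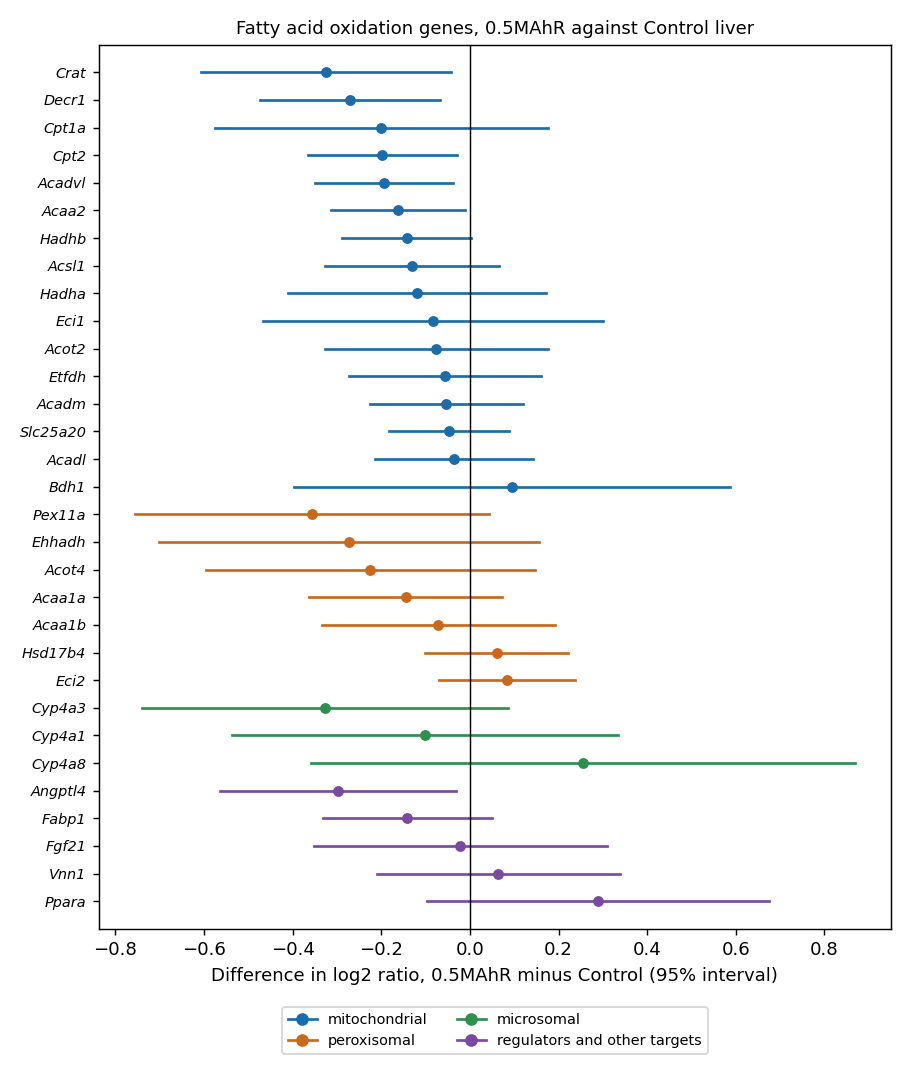
Difference in log2 ratio between 0.5MAhR and Control livers for the 31 genes, as points with 95% intervals from limma, coloured by compartment; the vertical line marks 0. Points lie left of 0 for 25 of 31 genes, and 6 intervals leave out 0.

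The share of lower genes also varied with the ratio of liver to reference, a grouping made after seeing the data. The grouping uses the Control values that are also subtracted in the difference. Genes picked for a high Control ratio can therefore lean lower through that choice alone. Of the 331 genes tested with a Control log2 ratio above 4, 69.5% were lower in 0.5MAhR livers, with a median difference of -0.08, and in Cy5 alone 59.8% were lower, with a median of -0.04. The 5 fatty acid oxidation genes of that range were all lower, with a median of -0.14. Between log2 ratios of 2 and 4 there were 576 genes, 52.8% of them lower with a median of -0.02, and of the 18 fatty acid oxidation genes there 15 were lower, with a median of -0.10. Between 1 and 2, 58.3% of 1066 genes were lower, so the share did not climb steadily with the ratio, and 2 of the 3 fatty acid oxidation genes there were lower. Between 0 and 1, 50.6% of 3726 genes were lower, and 2 of 3 fatty acid oxidation genes. Below 0, 50.7% of 4868 genes were lower, and 1 of 2 fatty acid oxidation genes.

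Promoters were read for the genes with a RefSeq entry, 29 of the 34, to see which hold the direct repeat that PPAR-alpha binds with its partner RXR. Decr1, Acaa2, Acadl, Cyp4a1 and Vnn1 had no entry and were not searched. The motif searched was AGGTCANAGGTCA on both strands, with up to 2 of its 12 defined letters mismatched, from 250 bases before to 50 bases after the start. It was found in 5 of 29 promoters (17.2%) and in 3.77% of 33469 promoters in all, and with at most 1 mismatch in 3 of 29 (10.3%) and in 0.439%. A match is a run of letters, not evidence of binding. The 4 below are shown because Acadvl and Crat were among the 6 genes with an unadjusted p under 0.05, and Fabp1 and Acot4 are the other promoters with at most 1 mismatch; Slc25a20 held the fifth match. Capitals mark the match, and all are RefSeq sequences of GRCr8, 5′ to 3′ along the gene's strand. The Acadvl window is chr10:55236656-55236955 on the minus strand, with the match at -17 to -5 from the start. The Crat window is chr3:34087050-34087349 on the minus strand, with the match at -223 to -211. The Fabp1 window is chr4:104749090-104749389 on the plus strand, with the match at -77 to -65. The Acot4 window is chr6:109399604-109399903 on the plus strand, with the match at -13 to -1.
Acadvl: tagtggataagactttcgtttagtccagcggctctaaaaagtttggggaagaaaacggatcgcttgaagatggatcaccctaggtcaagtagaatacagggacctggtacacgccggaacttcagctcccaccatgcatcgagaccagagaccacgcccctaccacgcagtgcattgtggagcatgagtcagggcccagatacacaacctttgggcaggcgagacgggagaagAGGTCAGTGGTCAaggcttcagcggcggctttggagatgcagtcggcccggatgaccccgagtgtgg
Crat: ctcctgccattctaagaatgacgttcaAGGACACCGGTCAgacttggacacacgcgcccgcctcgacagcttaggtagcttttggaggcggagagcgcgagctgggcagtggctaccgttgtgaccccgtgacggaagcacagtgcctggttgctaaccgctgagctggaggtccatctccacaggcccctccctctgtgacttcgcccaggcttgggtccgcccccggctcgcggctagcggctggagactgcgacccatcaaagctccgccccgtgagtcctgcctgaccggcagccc
Fabp1: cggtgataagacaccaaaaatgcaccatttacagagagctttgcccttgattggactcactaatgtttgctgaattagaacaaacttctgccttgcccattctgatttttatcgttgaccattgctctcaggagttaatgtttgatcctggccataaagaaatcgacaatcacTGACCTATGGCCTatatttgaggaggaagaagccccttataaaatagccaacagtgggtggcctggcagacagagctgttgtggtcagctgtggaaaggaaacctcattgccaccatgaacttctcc
Acot4: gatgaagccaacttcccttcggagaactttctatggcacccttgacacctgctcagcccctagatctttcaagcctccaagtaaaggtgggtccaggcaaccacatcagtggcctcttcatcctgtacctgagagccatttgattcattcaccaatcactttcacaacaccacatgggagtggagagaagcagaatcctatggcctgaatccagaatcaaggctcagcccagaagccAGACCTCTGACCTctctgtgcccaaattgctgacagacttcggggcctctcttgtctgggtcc
The differences of these genes were -0.19 for Acadvl, -0.32 for Crat, -0.14 for Fabp1 (0.11 in Cy5 alone) and -0.22 for Acot4. Slc25a20, with the fifth match, differed by -0.05. All genes with an unadjusted p under 0.05 were lower, so the direction of Acadvl and Crat follows from how they were picked. Cpt2 and Angptl4 also had such a p, and their promoters held no match. Whether a match goes with a lower ratio was not tested. GCGTG, the core letters that the AhR binds with its partner, was in 11 of 29 promoters (37.9%) and in 29.7% of all.

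Entry into the mitochondrion was represented by Acsl1, which activates long chains to CoA esters, Cpt1a, the regulated carnitine palmitoyltransferase of the outer membrane, the carrier Slc25a20, and Cpt2, which returns the acyl group to CoA inside. Cpt2 had log2 ratios of 2.60, 2.56, 2.65 and 2.60 in 0.5MAhR livers, against 2.71, 3.01, 2.63 and 2.86 in Control livers. Control replicate 7 lay inside the range of the 0.5MAhR arrays and the other 3 Control arrays above it, while within each slide column the groups did not overlap. The Cpt2 difference was -0.20 (SE 0.08, adjusted p = 0.701, unadjusted p = 0.027, limma), with -0.08 in column 1 and -0.31 in column 2.

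Cpt1a varied far more from array to array, from 1.17 to 2.43 in 0.5MAhR livers and from 1.64 to 2.88 in Control livers, and its difference of -0.20 had a 95% interval of -0.58 to 0.18, and was -0.06 without 0.5MAhR replicate 2 and -0.35 without 0.5MAhR replicate 4. Slc25a20 differed by -0.05 and Acsl1 by -0.13. Crat, carnitine acetyltransferase, which moves acetyl groups between CoA and carnitine, had log2 ratios of -0.40, -0.64, -0.05 and -0.49 in 0.5MAhR livers, against -0.02, 0.25, -0.54 and 0.03 in Control livers. The groups overlapped, since Control replicate 7 was as low as the 0.5MAhR arrays and 0.5MAhR replicate 3 nearly as high as Control replicate 5. The Crat difference was -0.32 (SE 0.13, adjusted p = 0.718, unadjusted p = 0.029, limma), -0.28 in column 1 and -0.37 in column 2.

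Inside the mitochondrion, the acyl-CoA dehydrogenases take the opening step of each beta-oxidation cycle. Acadvl, which acts on very long chains and whose promoter held the repeat with 1 mismatch, had log2 ratios of 3.13, 2.81, 3.19 and 2.94 in 0.5MAhR livers, against 3.02, 3.48, 2.98 and 3.37 in Control livers. In each slide column both 0.5MAhR arrays lay below both Control arrays, although the groups overlapped across columns. The difference was -0.19 (SE 0.07, adjusted p = 0.658, unadjusted p = 0.020, limma), -0.13 in column 1 and -0.26 in column 2. The dehydrogenases for long and medium chains, Acadl and Acadm, differed by -0.04 and -0.05. The trifunctional protein, which completes the cycle for long chains, had differences of -0.12 for its alpha subunit Hadha and -0.14 for its beta subunit Hadhb.

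Acaa2, the mitochondrial thiolase, was the only one of the 31 genes whose groups did not overlap over all arrays, lower in 0.5MAhR livers, where 0.511% of all genes tested were separated in that direction and 0.814% in the other. Its log2 ratios were 3.32, 3.39, 3.37 and 3.34 in 0.5MAhR livers, against 3.47, 3.61, 3.40 and 3.59 in Control livers. The lowest Control array and the highest 0.5MAhR array were close, at 3.40 and 3.39. The difference was -0.16 (SE 0.07, adjusted p = 0.754, unadjusted p = 0.039, limma), -0.07 in column 1 and -0.26 in column 2.

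Decr1, the dienoyl-CoA reductase needed for polyunsaturated chains, had log2 ratios of 2.36, 2.22, 2.38 and 2.53 in 0.5MAhR livers, against 2.61, 2.82, 2.62 and 2.53 in Control livers. The groups met at 2.53, the highest 0.5MAhR array and the lowest Control array, which lay in different slide columns. The difference was -0.27 (SE 0.09, adjusted p = 0.605, unadjusted p = 0.014, limma), -0.24 in column 1 and -0.30 in column 2. The isomerase Eci1, which prepares unsaturated chains, ranged from 1.14 to 2.91 in 0.5MAhR livers and from 1.55 to 2.82 in Control livers, and differed by -0.08. Etfdh, which hands the electrons on to ubiquinone, differed by -0.06, the thioesterase Acot2 by -0.08 and Bdh1, which interconverts the ketone bodies, by 0.09. Bdh1 was the 1 mitochondrial gene not lower in 0.5MAhR livers, and without replicates 1 and 4 it differed by -0.04.

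Within each slide column, the groups did not overlap and 0.5MAhR was lower in both columns for 5 of the 31 genes, namely Cpt2, Acadvl, Hadhb, Acaa2 and Decr1, all mitochondrial, where 3.09% of all genes tested were. None of the 31 was higher in that way, where 3.42% of all genes tested were.

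**Figure D3:**
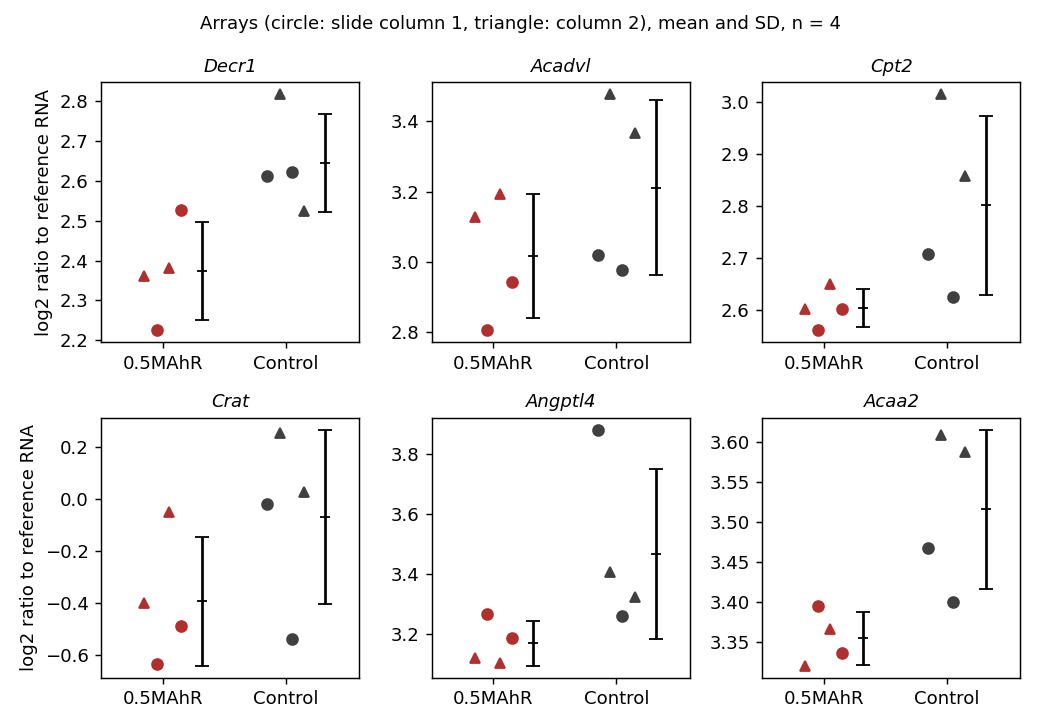
Log2 ratio to reference RNA (vertical axis, a separate scale in each panel) on every array for the 6 genes with an unadjusted p under 0.05; red is 0.5MAhR and grey Control, circles are slide column 1 and triangles column 2, and bars show the mean and SD over 4 arrays. The groups of Acaa2 do not overlap, those of Decr1 meet, those of Acadvl and Cpt2 overlap across slide columns, and those of Crat and Angptl4 also within column 1.

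Peroxisomal genes differed by -0.36 to 0.08. Pex11a, which takes part in peroxisome division, had the widest difference of all 31 genes, with log2 ratios of 1.65, 0.28, 1.03 and 0.69 in 0.5MAhR livers, against 0.92, 2.01, 0.84 and 1.30 in Control livers. The groups overlapped, and the arrays of column 2 were the higher ones in both groups. Its difference was -0.36 (SE 0.18, adjusted p = 0.851, limma), -0.40 in column 1 and -0.31 in column 2, -0.22 without Control replicate 6 and -0.61 without 0.5MAhR replicates 1 and 4.

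Acaa1a, a peroxisomal thiolase, had log2 ratios of 4.09, 3.07, 3.91 and 3.41 in 0.5MAhR livers, against 3.51, 4.002, 3.53 and 4.003 in Control livers. The ranges nested, the 0.5MAhR arrays spanning all Control arrays. The Acaa1a difference was -0.14 (SE 0.10, adjusted p = 0.892, limma), -0.29 in column 1, -0.0041 in column 2 and -0.05 without 0.5MAhR replicate 2. Ehhadh, the peroxisomal bifunctional enzyme of the PPAR-alpha-induced pathway, had log2 ratios of 1.61, 2.08, 2.57 and 2.54 in 0.5MAhR livers, against 2.78, 2.30, 2.46 and 2.35 in Control livers. A pair of 0.5MAhR arrays, replicates 1 and 2, lay below every Control array and the other pair among them. The Ehhadh difference was -0.27 (SE 0.19, adjusted p = 0.898, limma), -0.09 without 0.5MAhR replicate 1 and -0.47 without 0.5MAhR replicate 3. Of the other peroxisomal genes, the thiolase Acaa1b differed by -0.07, the thioesterase Acot4 by -0.22 (-0.02 without Control replicate 6), the second bifunctional enzyme Hsd17b4 by 0.06 and the isomerase Eci2 by 0.08.

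The microsomal omega-hydroxylases spread widely within the groups. Cyp4a3 had log2 ratios of 5.97, 5.65, 6.02 and 6.20 in 0.5MAhR livers, against 5.997, 6.89, 6.20 and 6.05 in Control livers. Control replicate 6 stood above all other arrays and the rest overlapped. The difference was -0.33 (SE 0.18, adjusted p = 0.873, limma), and -0.13 without Control replicate 6. Cyp4a1 had log2 ratios of 4.25, 4.24, 4.15 and 5.04 in 0.5MAhR livers, against 5.11, 3.74, 5.00 and 4.24 in Control livers. Its difference was -0.10 (SE 0.19), -0.41 in column 1 and 0.21 in column 2, so the direction depended on the column. Cyp4a8 had log2 ratios of -0.49, 0.79, 0.19 and 0.03 in 0.5MAhR livers, against 0.87, -0.54, -0.39 and -0.44 in Control livers. The groups overlapped over most of their range. The Cyp4a8 difference was 0.25 (SE 0.27), 0.02 without Control replicate 7, 0.52 without Control replicate 5 and 0.62 without 0.5MAhR replicates 1 and 4. Cyp4a2 had 0 of 8 arrays well above background, so it was not tested.

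Among the regulators and other targets, Angptl4, a secreted inhibitor of lipoprotein lipase, had log2 ratios of 3.12, 3.27, 3.10 and 3.19 in 0.5MAhR livers, against 3.88, 3.41, 3.26 and 3.32 in Control livers. The 0.5MAhR arrays clustered closely and overlapped the Control range only at its lower end, while Control replicate 5 stood highest. The difference was -0.30 (SE 0.12, adjusted p = 0.728, unadjusted p = 0.032, limma), -0.34 in column 1 and -0.25 in column 2, and -0.16 without Control replicate 5. Ppara itself ranged from 0.85 to 1.69 in 0.5MAhR livers and from 0.38 to 1.85 in Control livers, a difference of 0.29 (SE 0.17, adjusted p = 0.876, limma). Its dim probe was above background on 4 of 4 0.5MAhR arrays and 3 of 4 Control arrays. The Ppara difference ranged from 0.15 to 0.49 under the alternatives run.

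Fgf21, a hormone that liver secretes in fasting, was above background on 3 of 4 0.5MAhR arrays and 2 of 4 Control arrays, and differed by -0.02. The pantetheinase Vnn1 differed by 0.06. Fabp1 differed by -0.14 as a ratio and by 0.11 in Cy5 alone, with its reference signal 0.17 higher on the 0.5MAhR arrays. Pdk4, the kinase that restrains pyruvate dehydrogenase, was above background on 0 of 4 0.5MAhR arrays and 1 of 4 Control arrays, and the cytosolic thioesterase Acot1 on none, so neither was tested.

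The same genes were then read array by array. After each gene was centred on its slide column, the mean over the 16 mitochondrial genes was -0.100, -0.098, -0.098 and 0.046 on 0.5MAhR replicates 1 to 4, against 0.096, 0.182, -0.044 and 0.016 on Control replicates 5 to 8. The groups overlapped, 0.5MAhR replicate 4 lying above Control replicates 7 and 8. Control replicate 6 was the highest array of its column for 11 of the 16 mitochondrial genes, where it was so for 26.6% of all genes tested. 0.5MAhR replicate 1 was the lowest of its column for 11 of the 16, where it was so for 33.2% of all genes tested. The peroxisomal means were -0.076, -0.195, -0.045 and 0.052 on the 0.5MAhR arrays, against 0.104, 0.142, 0.039 and -0.021 on the Control arrays.

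**Figure D4:**
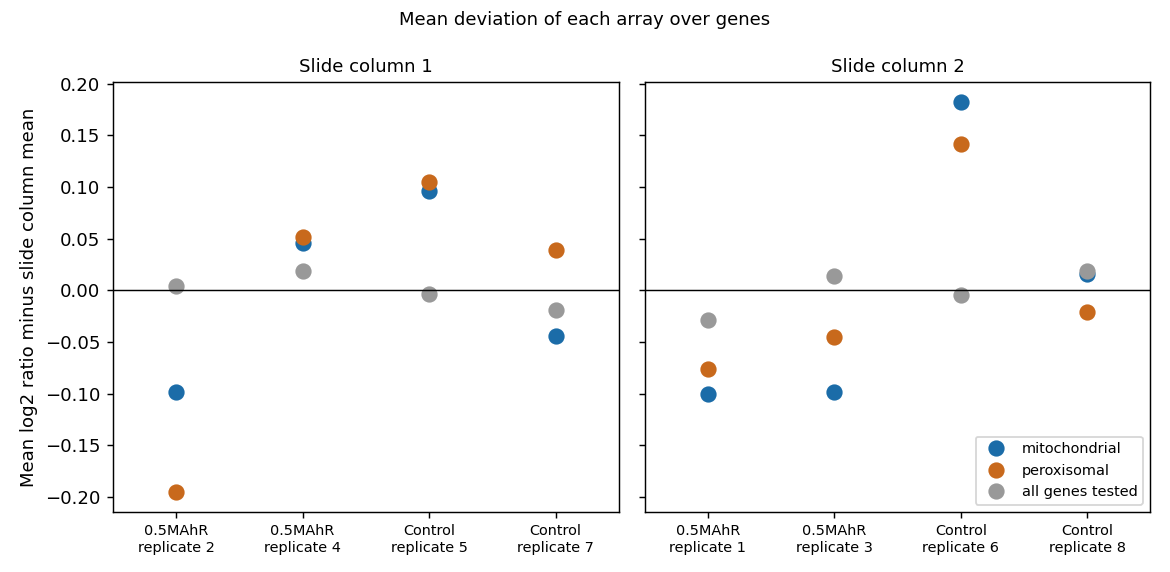
Mean of the log2 ratio after subtracting each gene's slide column mean (vertical axis) for every array, over the mitochondrial genes (blue), the peroxisomal genes (orange) and all genes tested (grey), with slide column 1 on the left and column 2 on the right. All genes tested stay near 0, while the mitochondrial mean reaches 0.182 on Control replicate 6 and -0.100 on 0.5MAhR replicate 1.

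The count of 6 genes with an unadjusted p under 0.05 moved with single arrays and with the fit. It was 1 without Control replicate 6, where 5.74% of all genes tested had such a p, 2 without 0.5MAhR replicate 1 (6.78% of all genes tested), 2 without 0.5MAhR replicate 2 (6.01%) and 4 without 0.5MAhR replicate 3 (5.13%). Without each of the other arrays it was 5 to 8, beside 5.7% to 6.73% of all genes tested, and 1 of the 5 without Control replicate 5 and 1 of the 8 without Control replicate 8 were higher in 0.5MAhR livers. It was 1 when slide column was left out of the fit, where 1.55% of all genes tested had such a p, and that gene was Decr1; at an adjusted p under 0.05 that fit called 0 of the 31, where 0.00946% of all genes tested were called. It was 1 with median centring in place of loess (1.74% of all genes tested), 3 with a trended robust variance (6.16%) and 5 with slide row and slide column both as terms (6.21%), 1 of these 5 being higher. Within slide column 1 it was 2 (5.44% of all genes tested) and within column 2 also 2 (5.65%), shares of the 31 genes near those of all genes. Without 0.5MAhR replicates 1 and 4 it was 5 (5.92%).

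Differences between slide columns were often wider than those between groups. Between the columns 15 of the 31 genes differed at an adjusted p under 0.05, 12 of them higher in column 2, where 56.8% of all genes tested differed and 28% were higher in column 2. The widest were Eci1, 1.18 higher in column 2 on the log2 scale, Cpt1a with 0.84, Pex11a with 0.81 and Cyp4a1 with -0.75. The median size of the column difference was 0.24 over the 31 genes, beside a median size of 0.14 for the group difference. Since both columns held 2 arrays of each group, the column differences cancel in the group means.

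Further genes of oxidation and ketogenesis were read from a second list. Of 42 listed, 37 were measured, and 22 were lower and 15 higher in 0.5MAhR livers, with a median difference of -0.03. In limma 0 were called at an adjusted p under 0.05, where 0.0473% of all genes tested were called. An unadjusted p under 0.05 in limma was found for 2 of the 37, 1 in each direction, beside 6.24% of all genes tested. Among the 4 with the smallest p were Acad9, an acyl-CoA dehydrogenase that also assembles respiratory complex I (0.18), and the electron transfer flavoprotein subunits Etfb (-0.16) and Etfa (-0.16). Of 42 other genes linked to PPAR-alpha 33 were measured, 18 lower and 15 higher, with a median of -0.02. In limma 0 were called, and 7 higher and 2 lower genes of the 33 had an unadjusted p under 0.05. Of all genes tested, 3.62% were higher and 2.62% lower with such a p. The 4 with the smallest p there were G0s2, an inhibitor of triglyceride lipolysis (-0.47), the peroxisomal membrane gene Pxmp4 (0.29), malic enzyme Me1 (0.67) and the apolipoprotein Apoa5 (-0.59).

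Cell type markers are given beside these differences, and their part in them was not tested. Of 10 hepatocyte markers 9 were lower in 0.5MAhR livers, with a median difference of -0.11, and in Cy5 alone 5 of 10 were lower, with a median of -0.0030. Within slide column 1 alone 5 of the 10 were lower (median -0.02), and within column 2 all 10 (median -0.29). Their summed Cy5 signal was 899324 to 1280260 units in 0.5MAhR livers and 1017060 to 1223040 units in Control livers. Of 9 periportal hepatocyte markers 7 were lower (median -0.13), and of 9 pericentral markers 7 were higher (median 0.07). Within slide column 2 alone, 7 periportal and 4 pericentral markers were lower. All 7 Kupffer cell markers were higher over both slide columns together, with a median of 0.15, but within column 2 alone 3 of them were lower. In Cy5 alone 1 Kupffer cell marker was lower. Their summed signals were 3686 to 8126 units in 0.5MAhR livers and 3850 to 5637 units in Control livers. In limma none of these markers was called, and 2 hepatocyte, 2 periportal and 1 Kupffer cell marker had an unadjusted p under 0.05. Of all genes tested, 6.24% had such a p. Of the other markers tested, 3 of 3 neutrophil, 3 of 3 adipocyte, 2 of 3 lymphocyte and 2 of 5 erythroid markers were lower. So were 2 of 6 stellate, 2 of 4 endothelial and 2 of 4 cholangiocyte markers. None of these was called in limma, and 1 stellate marker had an unadjusted p under 0.05. The lymphocyte marker Cd3e, the neutrophil markers Ngp and Elane, the cholangiocyte marker Cldn7 and the adipocyte marker Lep were above background on no array.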

How the data were processed

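Liver RNA labelled with Cy5 and a universal rat reference labelled with Cy3 were hybridised together on 8 Agilent arrays, all in the same dye orientation, so dye bias is shared by the groups. The study had 72 arrays, and the others were not analysed here. Per the file headers, spot intensity values (median foreground and background signals, deposited by the authors) were made with Agilent Feature Extraction 11.0.1.1. Log2 ratios of Cy5 to Cy3 in the deposited value table (r of 0.9974 to 0.998 with scanner ratios, column medians -0.0389 to -0.0326, centring not given in the sources used here) served as an alternative.

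Signals were corrected in limma 3.58.1 (R 4.3.3) with normexp (offset 50), normalised by loess within arrays with control and outlier spots at weight 0, and averaged over the spots of a probe. No spot was saturated. Probes were kept where Cy5 was well above background on 3 or more of the 4 arrays of a group, which 11407 of 30367 probes were. Probes were named through a RefSeq table (GRCr8), 18005 with a symbol, and the brightest probe stood for a gene. Groups were compared with lmFit and eBayes, slide column as a term, with Benjamini-Hochberg adjustment over all 10567 genes or unnamed probes, two-sided, threshold 0.05. Precision is limited by the number of arrays.

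The gene list, the other lists and the tests were chosen with earlier results of these data known. Values on every array are given for genes with an unadjusted p under 0.05 or groups that did not overlap, and otherwise for the 3 with the smallest p in a compartment. Of other lists, the 4 genes with the smallest p are named, except that a gene the rule took is not reported here. Alternatives were other backgrounds, normalisations, filters and sources of signal, slide terms, each slide column alone, and each array left out.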

Additional observations from a re-analysis of the deposited data

Results flagged for a closer look

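In 4 of 62 groups of 4 arrays, 1 array stood apart from the other 3 by Dixon's test, its gap to the nearest array as a share of the range being above the 95% critical value, and chance flags about 1 in 20 groups. These gene values were not centred on slide column, so a column difference can enter them. The log2 ratio of Cyp4a1 was 5.04 on 0.5MAhR replicate 4, with the nearest 0.5MAhR array at 4.25, and that of Fabp1 was 9.46 on the same array, with the nearest at 9.11. After centring, Cyp4a1 was 0.16, -0.60, 0.05 and 0.19 on 0.5MAhR replicates 1 to 4, so replicate 4 no longer stood apart. Fabp1 was then -0.06, -0.24, -0.09 and 0.11. 0.5MAhR replicate 4 had the highest pancreatic acinar marker signal, whose part in these values was not tested. Among Control livers, Acadm was 3.53 on replicate 7, with the nearest array at 3.34, and Cyp4a8 was 0.87 on replicate 5, with the nearest at -0.39. After centring, Acadm was -0.10, 0.05, 0.10 and 0.05 on Control replicates 5 to 8, and Cyp4a8 0.55, -0.22, -0.72 and -0.12.

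Of 16 groups of mean deviations over gene lists, after centring on slide column, 2 were marked in the same way. The mitochondrial mean was 0.046 on 0.5MAhR replicate 4, with the nearest 0.5MAhR array at -0.098. The mean over the regulators and other targets was 0.11 on Control replicate 8, with the nearest Control array at -0.02.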

How the results depend on the processing

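No paired analysis was possible because the groups share no replicate number, so no number pairs a 0.5MAhR pool with a Control pool. Each slide row held 1 array of each group, and slide row fitted together with slide column left 5 genes called over all genes and 0 of the oxidation genes. Under every alternative run, 0 of the fatty acid oxidation genes passed an adjusted p of 0.05. The median difference over the 31 genes was below 0 under each of them, -0.21 within slide column 2 and -0.17 to -0.07 with single arrays left out. The mitochondrial median was -0.22 within column 2 and -0.17 to -0.06 with single arrays left out, and the peroxisomal median -0.0041 within column 2 and -0.18 to -0.05 with single arrays left out. The microsomal median was -0.35 with the scanner software's processed signals, 0.21 within column 2 and -0.20 to 0.12 with single arrays left out. The median over the regulators and other targets was -0.14 with probes above background on all 8 arrays, 0.10 within column 1, -0.14 within column 2 and -0.088 to 0.069 with single arrays left out. The causes were not tested.

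Over all genes, 5 passed in the fit reported. The count was 1 without slide column, 3 with median centring, 0 with processed signals (860 at an unadjusted p under 0.05 in limma), 14 in Cy5 alone, 3 with probes above background on all arrays, 3 with a trended robust variance, 2 within column 1, 0 within column 2 (597 at an unadjusted p under 0.05 in limma), 3 without 0.5MAhR replicates 1 and 4 (added after seeing the data), and 1 to 11 with single arrays left out. The count of 15 oxidation genes that differed between slide columns became 8 under median centring, 1 under processed signals and 12 to 14 with single arrays left out.

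The direction turned for 12 genes. Acadl was 0.026 with median centring, 0.016 with processed signals, 0.064 in Cy5 alone and 0.089 within column 1, and Fabp1 0.11 in Cy5 alone. Within column 1, Acot2 was 0.058, Fgf21 0.10, Acsl1 0.0048, Etfdh 0.11 and Hadha 0.021. Within column 2, Vnn1 was -0.0034, Bdh1 -0.22, Eci1 0.16, Acaa1b 0.11 and Cyp4a1 0.21. Without 0.5MAhR replicates 1 and 4, Fgf21 was 0.20 and Bdh1 -0.038. With single arrays left out, Acot2 ranged from -0.17 to 0.024, Fgf21 from -0.15 to 0.094, Vnn1 from -0.030 to 0.19, Acadl from -0.093 to 0.012, Bdh1 from -0.17 to 0.24, Eci1 from -0.26 to 0.00028, Etfdh from -0.13 to 0.020, Acaa1b from -0.15 to 0.043 and Cyp4a1 from -0.26 to 0.12. The other 19 genes kept their direction under the alternatives in which they were tested; Ppara was not tested with probes above background on all 8 arrays.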

Other observations

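Genes that respond to fasting and insulin, of which 17 of 21 listed were measured, lay on both sides of 0 between the groups. Of these, 8 were higher and 9 lower in 0.5MAhR livers, with a median difference of -0.04 on the log2 scale. In limma 0 of them were called at an adjusted p under 0.05, where 0.0473% of all genes tested were called. An unadjusted p under 0.05 in limma was found for 3 of the 17, where 6.24% of all genes tested had such a p. The 4 with the smallest p were Thrsp, a lipogenic gene that thyroid hormone induces in liver (0.29), the kinase Sik1 (0.27), the glucocorticoid-induced Tsc22d3 (-0.18) and G6pc1, the glucose-6-phosphatase that releases glucose from liver (-0.29). After centring on slide column, the mean over the 17 genes ranged from -0.04 to 0.0034 on the 0.5MAhR arrays and was -0.02, -0.24, 0.05 and 0.25 on Control replicates 5 to 8. Control replicate 6, which had the highest mitochondrial mean of the oxidation genes, had the lowest mean of these genes, and Control replicate 8 the highest.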
